A study of Mus musculus with 31 samples.

Results

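Cytosolic ribosomal protein genes were examined in whole brain of 31 BXD/TyJ mouse strains. Members were the probes whose platform annotation gave a single gene symbol made of Rpl or Rps, a number and at most 1 further letter, together with Rplp0, Rplp1, Rplp2 and Rpsa. This gave 64 genes on 72 probes, of 15096 named genes and 23040 spots on the array. The small (40S) subunit had 24 genes on 28 probes and the large (60S) subunit 40 genes on 44 probes. The rule also took in the paralogues Rps4l, Rps27l and Rpl39l, and it left out Rps3a1, Rpl36al, Rpl3l, Rpl22l1, Rpl7l1, pseudogenes, S6 kinases and probes with several symbols. Members lay on 19 chromosomes. Of the 72 member probes, 70 matched a RefSeq gene, with no change of symbol. No probe sequences were used here, so cross-hybridisation with the many processed pseudogenes of this family could not be assessed.

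BXD strains are recombinant inbred lines that descend from the C57BL/6J and DBA/2J strains. The strains numbered 33 to 42 (BXD33-42) had 7 arrays and those numbered 1 to 32 (BXD1-32) had 24, with 1 array per strain. On each array, RNA pooled from 3 male animals of the strain, aged 8 weeks and labelled with Alexa Fluor 647, was set against RNA from whole brain of male C57BL/6J mice of the same age, labelled with Alexa Fluor 555. No dye swaps were made, and strain and array cannot be told apart. Values are log ratios, taken as log2 of strain over C57BL/6J. Neither the log base nor this direction was settled by the labels, and with the opposite direction every signed log ratio and difference below would turn, while correlations between log ratios would keep their sign. Precision is limited by the number of arrays. A log ratio holds no absolute level, so the levels of different genes and the tissue label could not be checked against markers. In whole-brain RNA, fewer cells of a type and less RNA per cell cannot be told apart.

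Ribosomal proteins assemble with ribosomal RNA into the small subunit, which reads the mRNA, and the large subunit, which joins amino acids. Most of them are needed in equal numbers in each ribosome, and in mammals their mRNAs typically start with a run of pyrimidines, the 5′ terminal oligopyrimidine (TOP) motif, through which the mTOR kinase controls their translation. In neurons, ribosomes occur in the cell body and in dendrites.

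The arrays themselves fell into groups when principal components were taken over all spots other than member probes. On the first component, with 29.0% of the variance, 7 arrays stood apart (BXD36 and BXD38 of BXD33-42, with BXD6, BXD8, BXD20, BXD23 and BXD28 of BXD1-32). On the second, with 12.1%, 8 arrays did (BXD33, BXD34, BXD39, BXD40 and BXD42 of BXD33-42, with BXD15, BXD22 and BXD27 of BXD1-32), and 16 arrays remained. BXD33-42 had 2 of the 7, 5 of the 8 and 0 of the 16 arrays, and BXD1-32 had 5 of the 7, 3 of the 8 and all of the 16. The labels give no batch. In the print order, the spots at the eighth place of each run of 8 had low ratios: the 1934 probes of other named genes there averaged −0.54, against 0.04 for the 14636 at places 1 to 7. Of the member probes, 17 lay at place 8, and 14 genes (5 small subunit, 9 large subunit) had no other probe.

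The member genes stood above 0 more often than below it over the 31 arrays, but among genes with probes only at place 8 more were below it. By limma's moderated test, 32 of 64 had a positive mean log ratio and 17 a negative one, and 15 were not called. Of all 21262 features tested, 42.1% were positive and 33.9% negative, so these counts taken alone lie close to the background. The median of the member means was 0.16, against 0.03 for all named genes. In the small subunit 9 of 24 were positive and 5 negative, and in the large subunit 23 of 40 were positive and 12 negative. No test between the subunits was made. Among the 14 genes with all probes at place 8, 2 were positive and 9 negative, against 8.92% and 78.7% of the features with all probes there. The 47 genes with no probe at place 8 had 29 positive and 6 negative, against 46.8% and 27.8% of such features. With all probes at place 8 left out and 50 genes remaining, 31 were positive and 7 negative, against 46.7% and 27.8% of all features that then remained. Tested against a 1.2-fold change in place of 0, 4 members were positive and 9 negative, against 12.4% and 15.6% of all features.

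In the small subunit the highest mean was that of Rps3, a protein at the mRNA entry channel that also acts in DNA repair. Its log ratios ran from 0.06 in BXD8 over a median of 0.79 to 1.87 in BXD5, with all 31 arrays above 0, and they averaged 0.80 ± 0.08 (SE over 31 arrays, adjusted p = 1e-10 by limma). Rps7 followed with a mean of 0.56 ± 0.10 and 25 arrays above 0, yet with −0.54 in BXD36 and 1.68 in BXD1 it spanned both signs. Rps14, altered in the 5q deletion form of human myelodysplasia, had a mean of 0.45 at place 8, and Rps21 and Rps28 each had 0.45, all 3 with 24 arrays above 0. Rps27l, the p53-inducible paralogue of Rps27, had a mean of 0.44 ± 0.07 with 26 arrays above 0. At the other end lay Rps24, one of the genes mutated in human Diamond-Blackfan anaemia, at −0.44 ± 0.05 and 4 arrays above 0, and Rps13 at −0.33, both at place 8. Rps25, which is known for its part in initiation at some viral RNAs, had −0.30 ± 0.05 at another place, with 6 arrays above 0. Rps2 had −0.18 and 3 arrays above 0, and Rps20 had −0.08 and was not called (limma adjusted p = 0.122).

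The large subunit had its highest mean in Rpl15, whose values ran from −0.21 in BXD36 over a median of 0.58 to 2.09 in BXD11, with 29 of 31 arrays above 0 and an average of 0.55 ± 0.08 (SE over 31 arrays, adjusted p = 8.49e-08 by limma). Rpl37a had a mean of 0.52, Rpl28 of 0.44 and Rpl7a of 0.41. Rpl27 and Rpl10, an X-linked gene whose product is added late in the making of the subunit, had 0.41 each, but with 18 arrays above 0 and values from −0.82 to 1.67 for Rpl27 and from −0.70 to 1.94 for Rpl10. The 6 lowest means all belonged to genes with a probe at place 8. They were those of Rpl39l (−0.67 ± 0.08), the testis-enriched paralogue of the exit tunnel protein Rpl39, Rpl34 (−0.63), Rpl26 (−0.62), which in human cells binds p53 mRNA, Rpl23 (−0.59), an inhibitor of Mdm2, Rpl36a (−0.57) and Rpl7 (−0.46). Rpl39 itself, also at place 8, had −0.46. Only 4 members passed the test with the same sign on all 31 arrays, against 10.2% of all features: Rps3 and Rpl32 (0.35) above 0, and Rpl23 and Rpl4 (−0.39 ± 0.03, limma adjusted p = 2.53e-12, at place 1) below it. Rpl32 was named after its values were seen. For Rpl23 the uniform sign is that of an average, since its 2 probes had 1 and 4 arrays above 0.

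The stalk proteins, which recruit the elongation factors to the large subunit, all had positive means of unequal spread. Rplp0, the stalk base, had 0.32 ± 0.04 with 29 arrays above 0 and an SD across arrays of 0.208. That SD is of the average of 2 probes, which had SDs of 0.251 and 0.337 and r = −0.020 between them over the 31 arrays. Rplp1 had 0.37 ± 0.13 with 18 arrays above 0 and an SD of 0.781, the widest of the 64 members, from −0.72 in BXD38 to 1.81 in BXD11. Rplp2 had 0.20 ± 0.09 with 19 arrays above 0, and its limma adjusted p of 0.0468 passed the threshold narrowly. Rps6, the substrate of the S6 kinases, had a mean of 0.13 and was not called, with 17 arrays above 0. Neither were X-linked Rps4x (0.08), its paralogue Rps4l (0.02), nor Rpsa (0.00), which is also known as the laminin receptor.

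The clearest pattern of these genes was between arrays. The mean over the 64 members ran from −0.37 in BXD8 to 0.72 in BXD32, while the mean over all named genes stayed between −0.04 and −0.01, as the deposited arrays share one distribution. On the BXD32 array 56 of 64 members lay above 0 (87.5%), and on the BXD8 array 7 of 64 (10.9%). The share of named genes above 0 lay between 50.6% and 52.1% on all 31 arrays. After BXD32, the highest member means were those of BXD5 (0.57), BXD18 (0.46) and BXD11 (0.44), and next to BXD8 the lowest were BXD38 (−0.36), BXD36 (−0.27) and BXD39 (−0.27). Since each strain had 1 array, no test between strains was possible.

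These levels followed the array groups. The members' mean lay between −0.37 and 0.08 on the 7 arrays (median −0.24), between −0.27 and 0.07 on the 8 arrays (median −0.18) and between 0.07 and 0.72 on the 16 arrays (median 0.30). Of the 15 arrays that stood apart, BXD28 (0.08, among the 7) and BXD15 (0.07, among the 8) were the only ones above 0, and of the 16 arrays BXD16 (0.07) and BXD24 (0.08) were lowest. The range of the 16 arrays overlapped that of the other 15 only at BXD16, BXD15 and BXD28. What sets the array groups apart was not tested.

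**Figure D1:**
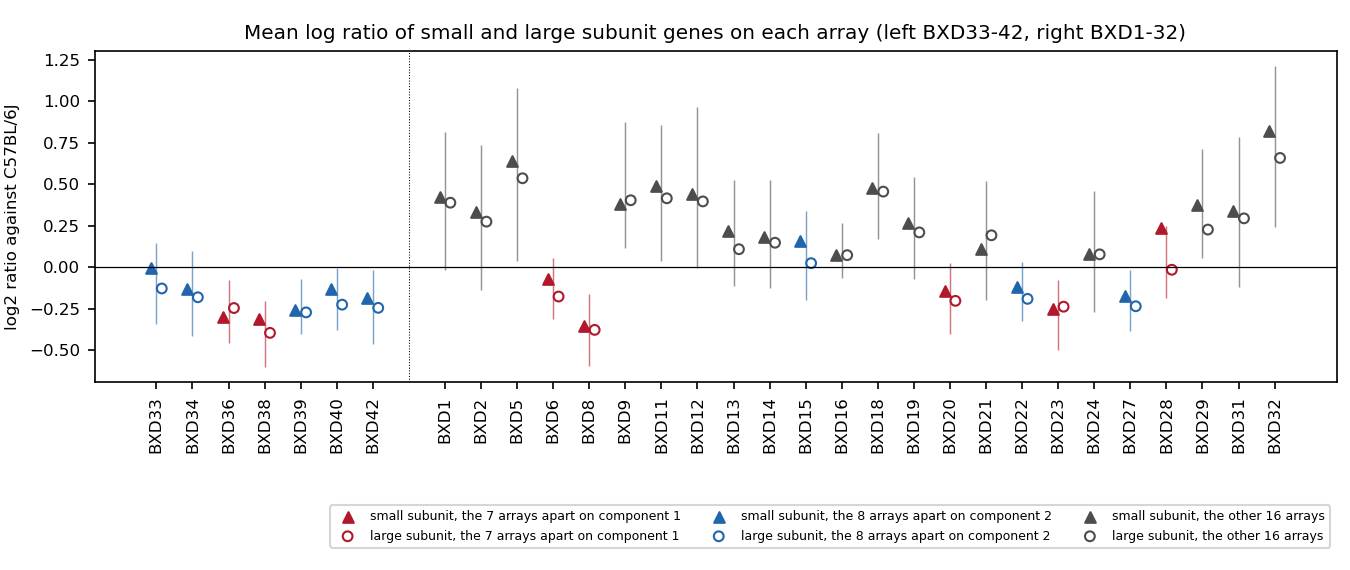
Mean log2 ratio against C57BL/6J of the 24 small subunit genes (triangles) and the 40 large subunit genes (open circles) on each array, BXD33-42 at the left and BXD1-32 at the right. Vertical lines run from the lower to the upper quartile of the 64 members, and colours mark the 7, 8 and 16 arrays; each of the 16 arrays has both means above 0, whereas all 7 arrays of BXD33-42 have both means below 0.

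The subunits moved together. The small subunit mean ran from −0.35 in BXD8 to 0.82 in BXD32 and the large subunit mean from −0.40 in BXD38 to 0.66 in BXD32. Their difference, small minus large, stayed between −0.08 (BXD21) and 0.25 (BXD28), with a mean of 0.06 ± 0.07 (SD, n = 31). Within array groups, Pearson's r between the 2 subunit means was 0.922 over the 7 arrays, 0.985 over the 8 and 0.959 over the 16, and without the 2 arrays farthest from the median it was 0.772, 0.902 and 0.925. These are descriptions of arrays that share probes, reference RNA and normalization, and no p is given. With members at place 8 left out, the mean over the other 50 genes ran from −0.34 in BXD8 to 0.78 in BXD32, and all 16 arrays again lay above 0 (0.15 to 0.78). BXD33 was then at 0.04, against −0.08 with all members. The 14 genes with probes at place 8 alone had means from −0.66 in BXD39 to 0.55 in BXD32.

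Gene by gene, 52 of 64 members (22 of 24 small, 30 of 40 large) had a higher mean on the 16 arrays than on both other groups, against 30.0% of all features. In 6 members the lowest of the 16 arrays lay above the highest of the other 15, against 0.898% of all features. They were Rps14, Rpl10a, Rpl13, Rpl13a, Rpl28 and Rpl38, named here after their values were seen. Rpl28 lay between −0.51 and 0.28 on the other 15 arrays and between 0.53 and 1.35 on the 16. Rpl38, a regulator of Hox mRNA translation in the mouse embryo, reached at most −0.12 on the other 15 and at least 0.12 on the 16, and its mean over all 31 arrays of 0.05 was not called. By limma on each array group alone, 3 members were positive and 30 negative on the 7 arrays (background 24.1% and 23.8%), 10 positive and 31 negative on the 8 arrays (39.3% and 35.5%), and 42 positive and 13 negative on the 16 arrays (40.9% and 35.2%). In 20 members the mean was called positive on the 16 arrays and negative on the 7 or the 8, against 5.36% of all features.

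**Figure D2:**
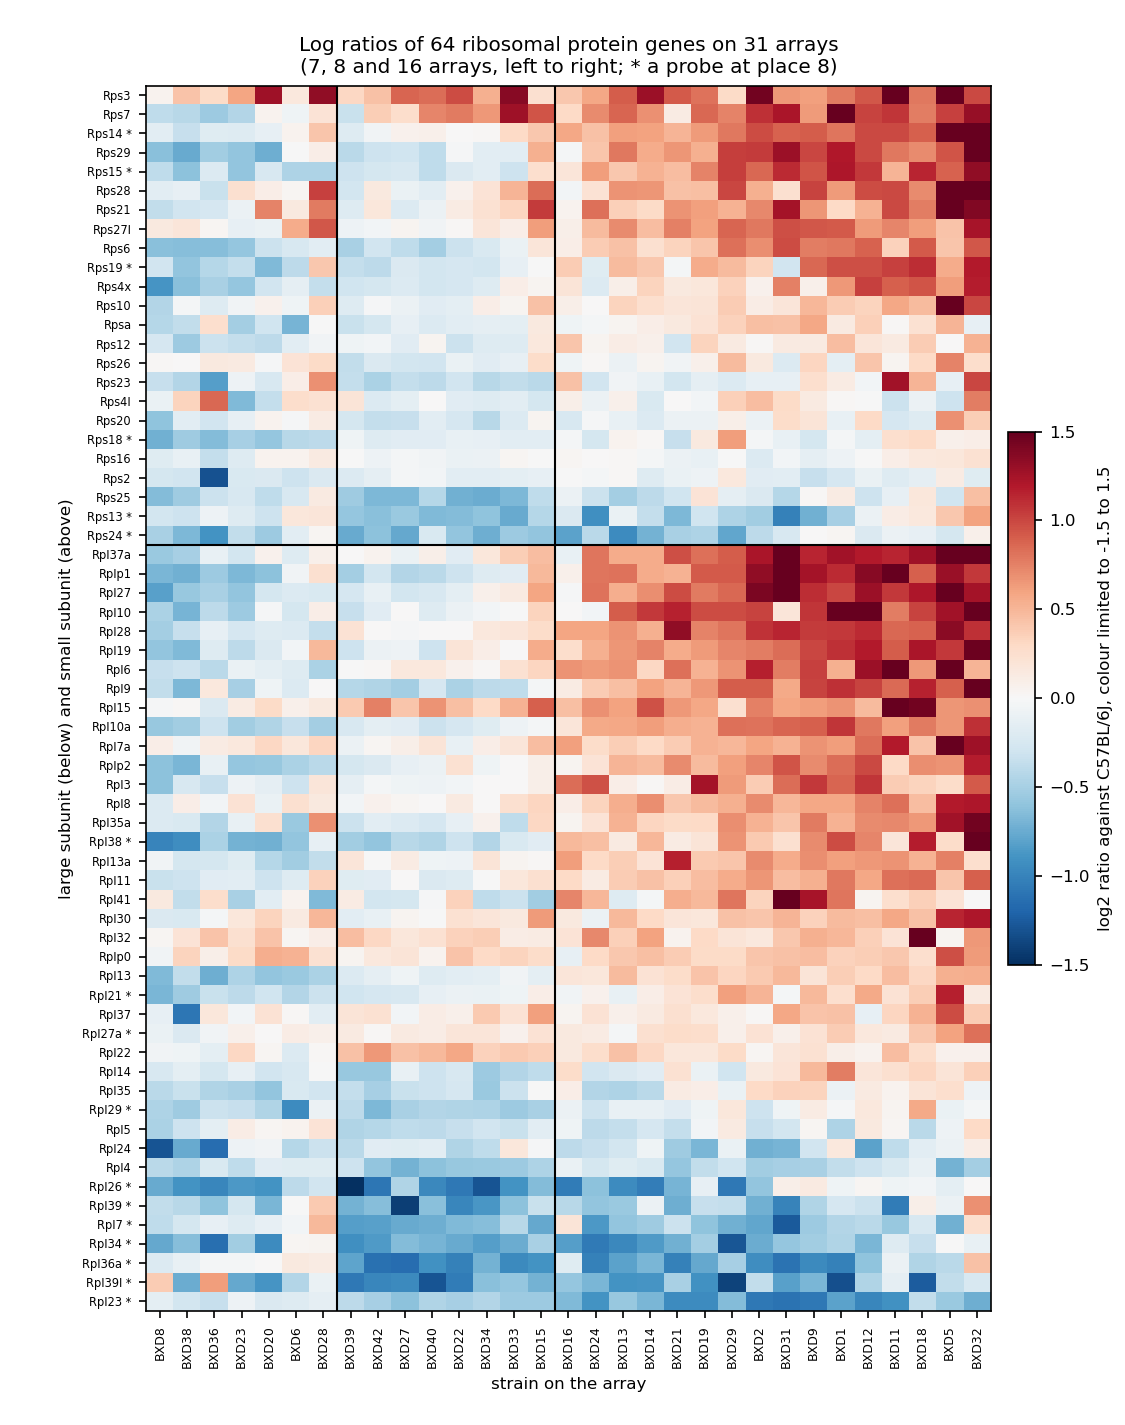
Log2 ratio against C57BL/6J of each of the 64 members (rows, small subunit above and large subunit below, each sorted by the mean of the 16 arrays) on each of the 31 arrays (columns, in the groups of 7, 8 and 16, each sorted by the members' mean). Colours are limited to −1.5 to 1.5, and asterisks mark genes with a probe at place 8; most rows are positive on the 16 arrays and near 0 or negative on the other 15, whereas a block of large subunit genes with asterisks is negative on nearly all arrays.

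Rpl23, Rpl22 and Rpl4 were among the members that did not follow this pattern. Of the 14 genes with probes at place 8 alone, 8 had a higher mean on the 16 arrays than on both other groups. Of the 47 with no probe at place 8, 42 did, against 30.0% of all features. Rpl23 lay lowest on the 16 arrays (mean −0.81), against −0.20 on the 7 arrays and −0.50 on the 8. This rested mostly on its place 8 probe, with −0.24, −0.93 and −1.41 on the 7, 8 and 16 arrays. Its other probe had −0.16, −0.06 and −0.21. Rpl22, known for its role in lymphocyte development, was highest on the 8 arrays, with values from 0.35 to 0.65, against −0.21 to 0.31 on the 7 and 0.035 to 0.46 on the 16. Rpl4, a lining protein of the exit tunnel, stayed between −0.71 and −0.10 throughout. Rps3 followed it while above 0 on all arrays, with means of 0.59 on the 7 arrays, 0.70 on the 8 and 0.94 on the 16. Rps16 had the smallest spread of all members, with an SD of 0.122 over the 31 arrays.

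The members varied more between arrays than most genes did. The median SD over the 31 arrays was 0.398 for the members, with 0.395 in the small and 0.404 in the large subunit, against 0.268 for all named genes, and 17.5% of named genes exceeded the members' median. Within the 16 arrays the median SD was 0.327 for the members and 0.20 for all named genes.

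Within each array group the members also varied together from array to array. The mean pairwise Pearson correlation among members was 0.312 over the 7 arrays, 0.267 over the 8 and 0.261 over the 16. Among all 15096 named genes it was at most 0.0025 in these groups. The shared distribution of the arrays holds that average near 0, so it does not show what other gene sets reach. Small subunit pairs had 0.464, 0.292 and 0.302 in the 7, 8 and 16 arrays, large subunit pairs 0.241, 0.243 and 0.231, and pairs across the subunits 0.326, 0.279 and 0.273. Single arrays carried part of this: the value was 0.196 on the 7 arrays without BXD28 and 0.119 on the 8 without BXD15, and on the 16 arrays it lay between 0.210 (without BXD32) and 0.279 with any 1 array left out. Without BXD28 the small subunit pairs had 0.226 on the 7 arrays and the large subunit pairs 0.185, and without BXD15 they had 0.102 and 0.112 on the 8, so the gap between the subunits on the 7 arrays rested largely on BXD28. On the 16 arrays, 42 of 64 members had r above 0.5 with the mean of the other members, against 10.1% of the 15032 other named genes with the members' mean. Correlations share arrays and print positions and are given as descriptions.

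The members closest to the common course on the 16 arrays were Rpl19 (r = 0.919), Rpl35a (0.916), mutated in some cases of human Diamond-Blackfan anaemia, and Rpl9 (0.893) in the large subunit, and Rps14 (0.908), Rps28 (0.827) and Rps4x (0.776) in the small. Rpl19 ran from 0.27 over a median of 0.80 to 1.47 on the 16 arrays, and Rps14 from 0.44 over 0.85 to 1.67, both highest on BXD32 and BXD5. The lowest r were those of Rpl4 (−0.432), Rpl22 (−0.349) and Rpl41 (−0.166), which encodes the smallest ribosomal protein, and in the small subunit those of Rps2 (−0.229), Rpsa (0.197) and Rps4l (0.211). Most place 8 genes were low in level but moved with the rest on the 16 arrays. Of the 14 genes with probes at place 8 alone, all 14 had r above 0 and 10 had r above 0.5 on these arrays. Examples were Rpl34 at 0.786 and Rps24 at 0.752. Over all 31 arrays, 11 of the 14 had r above 0 and 8 had r above 0.5.

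**Figure D3:**
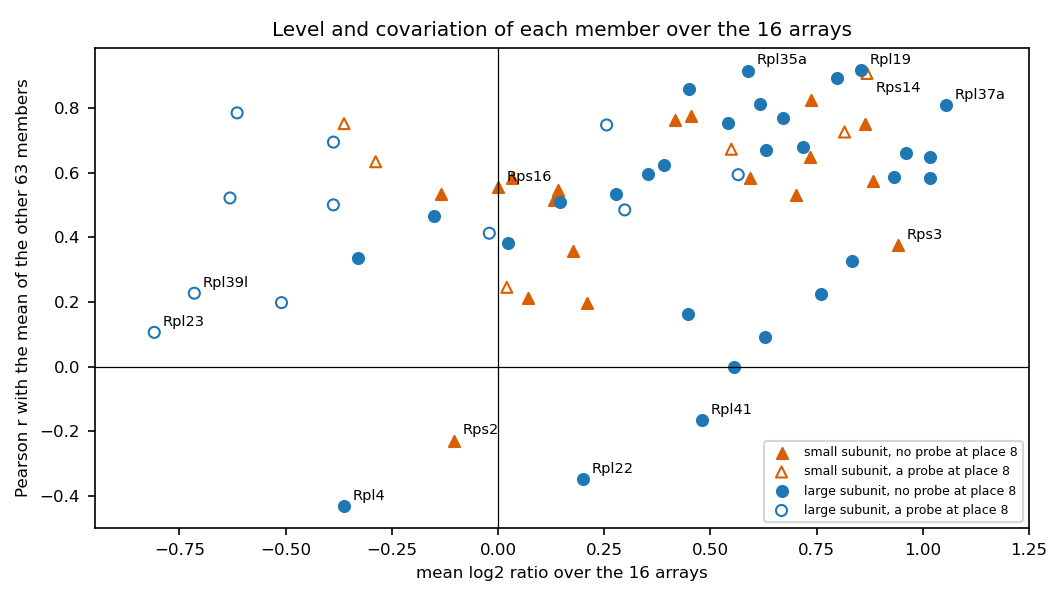
Mean log2 ratio of each member over the 16 arrays (horizontal axis) and its Pearson r with the mean of the other 63 members over the same arrays (vertical axis), with triangles for small subunit and circles for large subunit genes and open symbols for genes with a probe at place 8. Members above and below 0 in level both reach r above 0.5, while Rpl4, Rpl22, Rps2 and Rpl41 lie below 0 on the vertical axis.

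Position on the array moved with these correlations. On the 16 arrays, the 28 pairs of member probes within 5 spots of each other had a mean r of 0.467, against 0.224 for the 2520 other pairs. The 221 spots of other sequences within 2 spots of a member probe had a median r of 0.123 with the members' mean, against −0.006 for all other spots. The members' mean on the 16 arrays also had r = 0.722 (Spearman's rho 0.615) with the third principal component of the other spots, and 0.433 without the 2 arrays farthest from the median. The part of print position and of this component in the covariation was not tested.

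Promoter sequence was set beside covariation because these genes are known for shared start site features. The RefSeq promoter table (GRCm38.p6) held 52 of the 64 members. A run of at least 6 C or T on the sense strand, touching the 10 bases on either side of an annotated start, was found in 31 of 52 members (59.6%), against 33.3% of 17491 protein-coding genes. On the opposite strand the same search found 6 of 52 (11.5%), against 36.4%. The motif CCGGAAG, the core bound by Ets factors such as Gabpa, was found on either strand in 24 of 52 (46.2%) within 250 bases before and 50 after the start, against 12.9%. TATAAA on the sense strand in the 40 bases before the start was found in 0 of 52, against 3.42%. On the other strand CCGGAAG reads CTTCCGG, whose first 5 letters can be part of a pyrimidine run, so that these searches are not independent. A motif was counted for a gene if any of its annotated starts held it. Shown are the 60 bases around a start (40 before and 20 after), with the pyrimidine run in capitals. They belong to the 3 large subunit genes with the highest r on the 16 arrays and the 3 with the lowest. Of several annotated starts, the one with the longest run was taken, then the one nearest the gene's 5′ end. The start shown for Rpl19 lay 4921 bases from that end and the start for Rpl35a 29 bases. Those of Rpl9, Rpl41, Rpl22 and Rpl4 lay at it.
Rpl19: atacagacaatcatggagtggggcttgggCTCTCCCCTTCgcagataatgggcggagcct
Rpl35a: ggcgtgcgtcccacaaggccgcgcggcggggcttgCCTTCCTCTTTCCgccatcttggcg
Rpl9: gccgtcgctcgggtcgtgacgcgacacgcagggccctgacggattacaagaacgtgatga
Rpl41: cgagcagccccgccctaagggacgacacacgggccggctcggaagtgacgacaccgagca
Rpl22: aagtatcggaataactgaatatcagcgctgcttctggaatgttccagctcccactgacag
Rpl4: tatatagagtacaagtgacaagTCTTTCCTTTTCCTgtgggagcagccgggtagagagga
The windows lie at chr11:98026884-98026943 on the plus strand for Rpl19, chr16:33056442-33056501 on the plus strand for Rpl35a, chr5:65391412-65391471 on the minus strand for Rpl9, chr10:128549149-128549208 on the minus strand for Rpl41, chr4:152324396-152324455 on the plus strand for Rpl22 and chr9:64173347-64173406 on the plus strand for Rpl4. The longest run of the 6, with 14 bases, was that of Rpl4, which had the lowest r, and Rpl35a and Rpl19 had runs of 13 and 11. The runs of Rpl4 and Rpl19 lay wholly before the annotated start shown, and only that of Rpl35a spanned it. Over all 52 members the median r on the 16 arrays was 0.545 for the 31 with a run and 0.625 for the 21 without. Annotated starts can differ from those used in brain, and no match says only that the letters are not in this window.

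Probe by probe, 37 of 72 member probes had a positive and 20 a negative mean (limma on each spot), against 42.0% and 34.3% of all 23040 spots. At places 1 to 7, 35 of 55 were positive and 9 negative, against 46.6% and 28.0% of all spots there. Against a 1.2-fold change 5 of the 72 were positive and 10 negative, with 12.4% and 15.8% of all spots. At place 8, 2 of 17 were positive, those of Rps14 and Rps15, and 11 negative, against 9.44% and 77.8% of all spots at this place. Member probes at place 8 averaged −0.29, against −0.54 for other named genes there, and those at places 1 to 7 averaged 0.18, against 0.04. By place, the member averages were 0.04, 0.18, 0.16, 0.41, 0.26, 0.17, 0.15 and −0.29 from place 1 to place 8, over 3 to 17 probes each.

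The 8 genes with 2 probes showed how far a value depended on the probe. For Rpl35a both probes had positive means of 0.21 and 0.29, and r between them was 0.745 on the 16 arrays, 0.684 on the 8 and 0.838 on the 7. For Rplp0, means were 0.42, with all 31 arrays above 0, and 0.22, with 22 above 0. Between these probes r was 0.521 on the 16 arrays, 0.070 on the 8 and 0.354 on the 7, but −0.020 over all 31. The first averaged 0.63, 0.40 and 0.34 on the 7, 8 and 16 arrays, and the second −0.07, 0.04 and 0.44. The first probe of Rplp0 was one of the 2 member probes without a RefSeq match.

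The place 8 probe of Rpl23 had a mean of −1.02 ± 0.55 (SD, n = 31) and its other probe −0.16 ± 0.16, with r = 0.292 on the 16 arrays. Rps18 had −0.59 ± 0.37 at place 8 with 1 array above 0 and 0.29 ± 0.36 at place 2 with 21 above 0, so that its mean over probes is positive or negative according to whether place 8 is kept. Rpl27a had 0.19 at place 6 and 0.13 at place 8, with r = 0.424 on the 16 arrays but −0.758 on the 7. The place 8 probe of Rpl27a had r = 0.735 with the other members on the 16 arrays and the other probe 0.442.

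Besides Rplp0, the probes of 3 genes away from place 8 disagreed, each in the sign of r with the other members on the 16 arrays. Rpsa had means of 0.38, with 28 arrays above 0, and −0.38, with 5 above 0, which cancel in the gene mean of 0.00. Its first probe had r = 0.537 with the other members on the 16 arrays and its second −0.168. For Rps16, probe means were −0.24 and 0.18, and r between the probes was −0.574 on the 16 arrays, with r of −0.523 and 0.742 with the other members. Rps12 had means of 0.00 and −0.01, with r = −0.382 between its probes on the 16 arrays and −0.222 on the 7, but 0.710 on the 8. The narrow spread of Rps16, the spread of Rplp0 and the mean near 0 of Rps12 and Rpsa are thus averages of unlike probes.

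**Figure D4:**
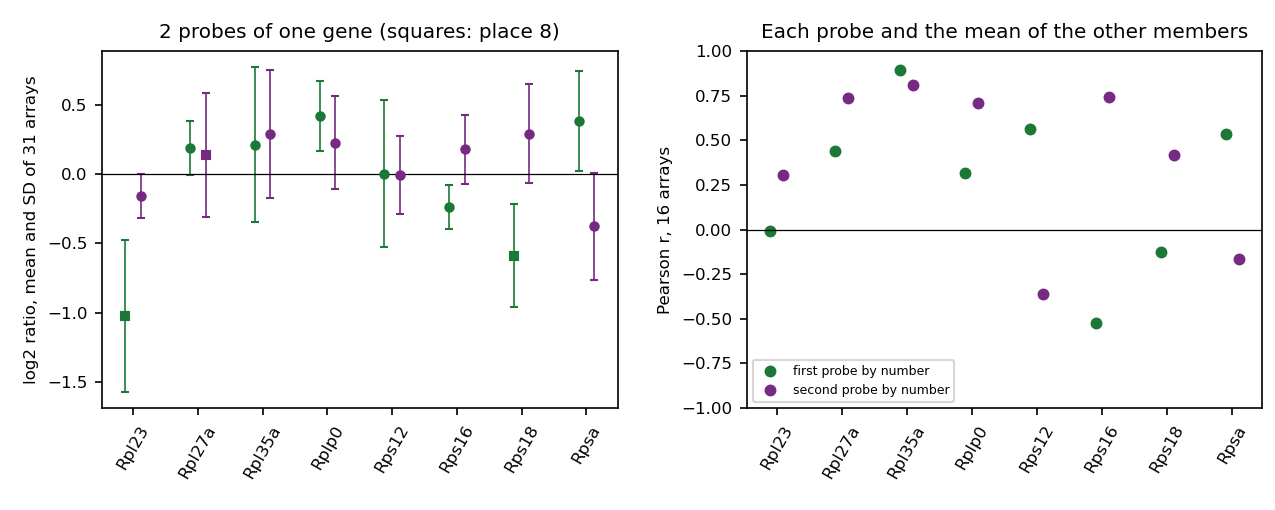
Left, mean log2 ratio with SD over 31 arrays of each probe of the 8 genes with 2 probes, squares for probes at place 8. Right, Pearson r of each probe with the mean of the other members over the 16 arrays; in both panels the first probe by number is green and the second purple. Only the probes of Rpl35a, Rpl27a and Rplp0 agree in the sign of both measures. Over all 31 arrays, r with the other members was −0.54 and 0.89 for the probes of Rpl27a and −0.17 and 0.80 for those of Rplp0.

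Between the strain sets, nearly all members had lower log ratios in BXD33-42 than in BXD1-32, without any passing the test over all 31 arrays. The mean over members lay between −0.36 and −0.08 in BXD33-42 (median −0.22) and between −0.37 and 0.72 in BXD1-32 (median 0.16), and the ranges overlap. Of the 64 genes, 61 had a lower mean in BXD33-42, and the median difference was −0.36, against 0.01 for all named genes. By limma over all features, 0 of 64 were called (adjusted p 0.0567 to 0.993), as were 0 with trend and robust moderation (0.503% of all features), while 41 were lower and 0 higher at an unadjusted p under 0.05. With 1 array left out, 0 to 12 members were called lower, the most without BXD8 or without BXD23 (12 each, against 0.931% and 0.997% of all features). The background was 0.48% called in either direction, and 9.79% lower and 10.4% higher at an unadjusted p under 0.05.

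The smallest adjusted p was that of Rpl19, which ran from −0.66 over a median of −0.19 to 0.09 in BXD33-42 and from −0.59 over 0.65 to 1.47 in BXD1-32, a difference of −0.77 (limma adjusted p = 0.0567). Rpl26 followed with a mean of −1.10 ± 0.24 (SD, n = 7) in BXD33-42 and −0.48 ± 0.42 (SD, n = 24) in BXD1-32, a difference of −0.61 (limma adjusted p = 0.0603). Rplp1 had the largest difference, −0.996, with −0.40 ± 0.20 in BXD33-42 and 0.59 ± 0.74 in BXD1-32 (limma adjusted p = 0.0648). Rps6 differed by −0.71, Rpl35a by −0.64 and Rpl14 by −0.43, each with an adjusted p of 0.0643 or less that missed the threshold. In all 6 genes the ranges of the sets overlapped. The lowest value of BXD33-42 lay below the lowest of BXD1-32 in all of them but Rpl35a, with −1.54 against −1.08 for Rpl26 and −0.57 against −0.38 for Rpl14, and by less than 0.1 in Rpl19, Rplp1 and Rps6. Only Rpl23 (0.22), Rps4l (0.12) and Rpl22 (0.10) had a higher mean in BXD33-42.

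BXD33-42 held none of the 16 arrays, on which most members were highest. With the array group as a block the median difference was −0.11, against −0.0021 for all named genes, with 55 of 64 lower, 0 of 64 members and 0 of 21262 features (0.0%) called (adjusted p 0.598 to 0.998 for members), and 1 member lower and 1 higher at an unadjusted p under 0.05, against 3.51% and 3.78% of all features. Rpl19 then differed by −0.31 and Rplp1 by −0.25. Within the 8 arrays the median difference over members was −0.08 and within the 7 arrays −0.13, again with 0 members and 0.0% of all features called. Without the 7 arrays, 30 members were lower and 1, Rpl23, higher by limma, against 7.15% and 8.72% of all features, but that comparison sets 5 arrays of the 8 against 3 of the 8 and the 16. The strain set and the array group can be told apart only within the 7 and the 8 arrays.

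**Figure D5:**
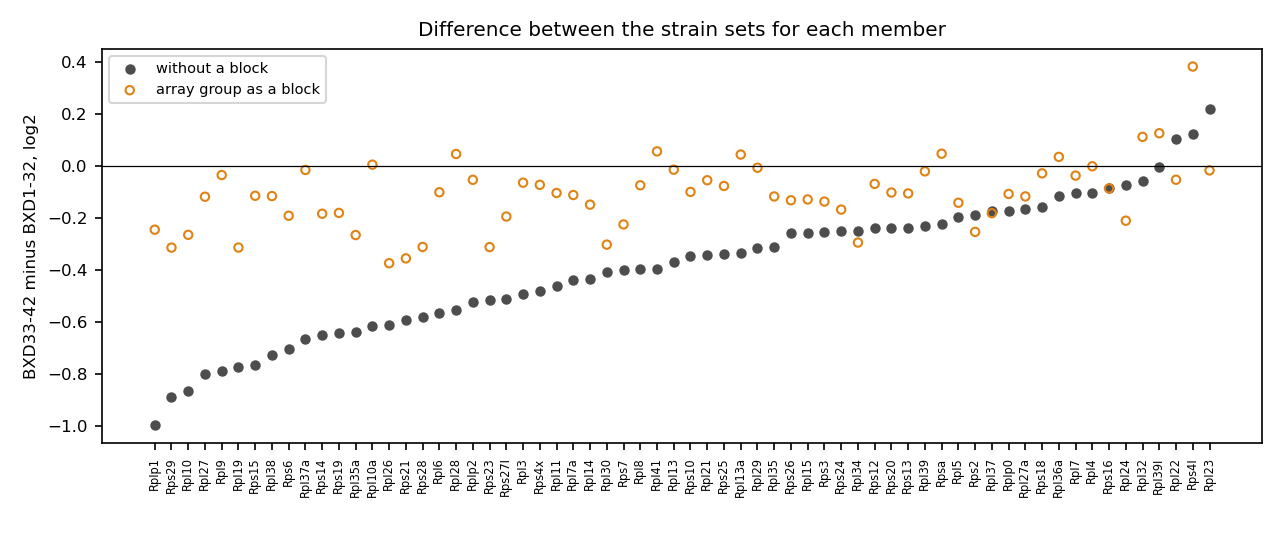
Difference in mean log2 ratio, BXD33-42 minus BXD1-32, of each of the 64 members, sorted by the difference without a block (filled circles), with the difference under the array group as a block beside it (open circles). Without a block the values reach −0.996 for Rplp1, and with the block all but Rps4l (0.38) lie between −0.37 and 0.13.

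Other genes of the translation machinery were set beside the members. Of the ribosomal proteins and close paralogues outside the rule, 3 were measured. Rpl22l1, the paralogue of Rpl22, was called positive (mean 0.19) and had r = 0.772 with the members' mean on the 16 arrays, unlike Rpl22 itself. Fau, whose product carries a small subunit protein, had means of −0.46 on the 7, −0.11 on the 8 and 0.51 on the 16 arrays, with r = 0.333. Rpl7l1, a paralogue of Rpl7, had a mean of −0.01, was not called and had r = −0.156. Of 14 other genes with TOP mRNAs, 3 were called positive and 7 negative, against 41.7% and 33.9% of the named genes that are no members. Eef1a1, the factor that brings tRNA to the ribosome, had −0.45 on the 7 arrays, −0.31 on the 8 and 0.35 on the 16, and r = 0.861. Tpt1 had −0.46, −0.07 and 0.51, with r = 0.257. Others of the 14 were lowest on the 16 arrays, such as Pabpc1 (0.11, −0.33 and −0.55) and Eif4b (−0.03, −0.07 and −0.32). In level, Eif3h (−1.11) and Npm1 (−0.40) were below 0 on all 31 arrays, and Eif3f (0.47) above it on all. Npm1 had r = 0.584 on the 16 arrays, and 2 of the 14 had r above 0.5, against 10.1% of other named genes. Of 37 ribosome biogenesis genes, 10 were positive and 17 negative by the same test. The 3 with the smallest adjusted p were Pes1 (−1.04), Wdr12 (−0.66) and Polr1a (−0.48), the largest subunit of RNA polymerase I. The median r of the 37 with the members' mean on the 16 arrays was 0.098, against 0.312 for the TOP genes and 0.004 for all other named genes. Of the 37, 4 (Fbl, Nolc1, Imp3 and Nop2) had r above 0.5, close to the 10.1% of other named genes. For BXD33-42 against BXD1-32, none of these genes was called.

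Markers of brain cell types moved with the members to different degrees on the 16 arrays. The median r with the members' mean was 0.343 for 15 neuronal markers, −0.429 for 12 astrocyte markers, −0.217 for 13 oligodendrocyte markers, −0.145 for 12 endothelial markers, 0.163 for 9 microglial markers, 0.199 for 7 choroid plexus markers, 0.073 for 8 pituitary markers and 0.026 for 4 blood markers. The neuronal markers were split, from Nefh at 0.87 to Eno2 at −0.68. Median log ratios of the lists on the 7, 8 and 16 arrays were −0.05, 0.10 and 0.00 for neurons and −0.02, 0.04 and −0.03 for astrocytes, against −0.23, −0.14 and 0.43 for the ribosomal protein genes. The part of cell composition in the ribosomal protein levels was not tested.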

How the data were processed

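The deposited table holds log ratios, taken as log2, of 31 arrays by 23040 spots. The submitters' processing notes name R 2.0.0 and limma without saying for which step. All columns held the same sorted values, so the authors had quantile normalised the deposited log2 ratios, which removes any shift of a whole array. How background and weak spots were treated is not stated. Scanner files were not analysed here, so dim or saturated probes were not marked.

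Probes of a gene were averaged, giving 21262 features with the 6166 spots without a single symbol. Means against 0 and BXD33-42 minus BXD1-32 were tested with limma 3.58.1 in R 4.3.3 (lmFit, eBayes, two-sided, Benjamini-Hochberg over all features, threshold 0.05). The reference counts as 1 control sample, so the test against 0 leaves out its spread. P-values measure the spread between single arrays of pooled RNA. On simulated data a mean shift of 0.25 was recovered in 66% and of 0.5 in 94.5% of 200 changed features among 21262. A strain set difference of 0.5 was recovered in 54% (30% with the array group as a block) and of 1 in 92.5% (86%). The simulated noise was independent between arrays, with each feature's own SD and no array groups. These rates therefore leave out what the array groups do to either test. Array groups came from principal components of spots that are no members, with scores above 0.2. Place in a run of 8 comes from probe numbers, and that it reflects printing is an assumption.

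The members, the gene lists and the rules were chosen with earlier results of these data known. Named were the 6 highest and lowest means and the 3 highest and lowest correlations per subunit, members with 2 probes or a probe at place 8, the 6 smallest adjusted p between strain sets in each direction, the stalk genes, Rpsa, Rps6, Rps4x and 2 paralogues, and up to 3 genes per list. Fau, Tpt1, Eif3f, Pabpc1, Eif4b, Rpl22l1, the array values of Eef1a1 and the r of Npm1 were chosen after their values were seen. So were Nefh, Eno2 and 4 biogenesis genes, named for their correlation.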

Additional observations from a re-analysis of the deposited data

Results flagged for a closer look

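In BXD33-42, the lowest or highest strain stood far from the other 6 (gap over range above Dixon's 95% critical value for 7 samples) in 7 of 67 sets of values tested, and chance flags about 1 in 20. All 7 were values of BXD36 or BXD38, the 2 strains of this set whose arrays belong to the 7 that stood apart, and the other 5 strains belong to the 8.

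Rpl37 was −1.09 in BXD38, against 0.11 to 0.39 in the other 6 strains, and was the lowest of all 31 arrays. Rplp2 was −0.68 in BXD38, against −0.27 to 0.0023. In BXD36, Rps2 was −1.30, against −0.29 to −0.04, Rps23 was −0.82, against −0.48 to −0.36, and Rps16 was −0.36, against −0.11 to 0.03, each the lowest of all 31 arrays. Rpl39l was 0.62 in BXD36, against −1.30 to −0.58 in the others, and Rpsa was 0.25, against −0.37 to −0.13. On the other 6 of the 7 arrays, Rpl39l ran from −0.89 in BXD20 to 0.39 in BXD8, so a positive value was not limited to BXD36. Whether these are values of the strain or of the array was not tested, since each strain had 1 array.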

How the results depend on the processing

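Each of 31 arrays and about 15 settings were varied in turn. Of the 32 positive and 17 negative members, counts lay between 29 and 33 and between 17 and 18 with any 1 array left out. With probes at place 8 left out 7 were negative. Against a 1.2-fold change 4 were positive and 9 negative. On the 7 arrays alone 3 were positive and 30 negative, and on the 8 alone 10 and 31. By probe, 9 were negative without place 8, and 5 positive and 10 negative against a 1.2-fold change. For the strain sets, 0 members were called higher and 0 to 12 lower with 1 array left out. The most, 12, were called without BXD8 or without BXD23, against 0.931% and 0.997% of all features. Fewer were called without BXD22, BXD27, BXD20, BXD15 or BXD6. Without the 7 arrays 1 was higher and 30 lower, against 8.72% and 7.15% of all features.

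The mean pairwise r was 0.407 over all 31 arrays, where it also holds the difference between array groups. It was 0.354 without the first and 0.220 without the first 3 principal components, 0.265 with group means subtracted, and 0.312, 0.267 and 0.261 on the 7, 8 and 16 arrays. Small subunit pairs had 0.480, and 0.404, 0.293, 0.335, 0.292 (8 arrays) and 0.302 (16 arrays) under these settings. Large subunit pairs had 0.363, and 0.324, 0.179, 0.224, 0.241 (7), 0.243 (8) and 0.231 (16), and 0.404 without place 8. Pairs across subunits had 0.423, and 0.363, 0.233, 0.278, 0.326 (7), 0.279 (8) and 0.273 (16).

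Signs turned for means near 0 or resting on place 8. On the 16 arrays Rpl14 was 0.15, Rps12 0.18, Rps16 0.00056, Rps18 0.021 and Rps20 0.033. In BXD1-32 alone Rpl14 was 0.029, Rps12 0.052 and Rps4l −0.0035. Rps12 was 0.084 without the 7 arrays, Rps18 0.29 without place 8 and Rpsa −0.0095 with arrays centred. With 1 array left out, Rpl21 lay between −0.015 and 0.046, Rpl38 between −0.013 and 0.079, Rps12 between −0.020 and 0.016, Rps4l between −0.0035 and 0.047 and Rpsa between −0.016 and 0.026. Rplp2 lost its call with any of 17 arrays left out and Rpl9 with any of 3. For the strain sets with the array group as a block, Rpl22 was −0.053, Rpl23 −0.017, Rpl28 0.046, Rpl36a 0.035, Rpl39l 0.13, Rpl41 0.056 and Rpsa 0.047. Rpl27a was 0.22 without place 8, Rps4l −0.10 without the 7 arrays, and Rpl39l lay between −0.22 and 0.10 with 1 array left out. The mean of BXD33 was 0.042 without place 8. The causes were not tested.

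No paired analysis was possible because the strain sets share no strain numbers. Settings on the 7 or 8 arrays alone, the group means subtracted and the settings by probe were chosen after seeing the data.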
